A study of Mus musculus with 2 samples.

Results

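The cells described here are donor CD4 T cells of the lung that held transcripts of the type 2 cytokines and showed no transcripts of division beyond a low limit. They were chosen by counts of unique molecular identifiers (UMIs), the tags that mark each captured RNA molecule, in every cell barcode of 2 single-cell libraries. To be called a cell, a barcode needed 500 UMIs or more over 250 genes or more, with mitochondrial genes giving no more than 10% of the UMIs. A member was a called cell with at least 1 UMI of Il4, Il5 or Il13 in sum, no UMI of Foxp3 and at most 2 UMIs of Mki67, Top2a, Cdk1, Birc5 and Ube2c in sum. The rule found 107 members among 508 called cells, 83 of 352 from the wild-type (WT) host and 24 of 156 from the MARCH1-/- host. Because the rule used counts of the same cells, differences between members and other cells are given as descriptions.

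WT mice were exposed to house dust mite extract by the airway on day 0 and on days 7 to 11, and CD4 T cells were taken from their lungs on day 14. The cells were dyed with Cell Trace Violet, which dims with each division, and given to C57BL/6 hosts or to MARCH1-/- hosts. All hosts were then challenged with the extract, and dye-low donor cells were sorted from the lung 4 days later. Donor cells carried no MARCH1 deletion in either group, so the groups differ in the host, which either lacked or had MARCH1, a membrane-bound ubiquitin ligase. There was 1 library per host, and the labels give no number of animals, so a difference between hosts and a difference between libraries cannot be told apart. No test was run, and every interval covers counting error alone.

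Type 2 helper (Th2) cells produce interleukin (IL)-4, IL-5 and IL-13 under the transcription factor GATA3. IL-4 supports Th2 differentiation and the switch of B cells to IgE, IL-5 supports eosinophils, and IL-13 acts on airway epithelium and smooth muscle. In allergic lungs such cells often carry ST2, the receptor for the alarm cytokine IL-33, which is encoded by Il1rl1.

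The genes that define the members lie together on mouse chromosome 11 (GRCm38). Il13 (ENSMUSG00000020383) spans chr11:53631324-53634702 on the minus strand, Il4 (ENSMUSG00000000869) chr11:53602982-53618669 on the minus strand and Il5 (ENSMUSG00000036117) chr11:53720794-53725106 on the plus strand. The 200 bases before each RefSeq start (GRCm38.p6) are shown because these 3 promoters drive the transcripts that were counted. Capitals mark every GATA, the core bound by GATA3, and every GGAAA, the core bound by NFAT factors, read on either strand, so the reverse complements TATC and TTTCC are also in capitals.
Il4 promoter, outermost of 2 RefSeq windows, chr11:53618666-53618865, minus strand: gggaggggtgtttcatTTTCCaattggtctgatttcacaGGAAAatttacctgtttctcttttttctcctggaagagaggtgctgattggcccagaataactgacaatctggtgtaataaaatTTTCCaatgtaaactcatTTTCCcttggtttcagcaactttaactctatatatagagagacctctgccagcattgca
Il5 promoter, chr11:53720594-53720793, plus strand: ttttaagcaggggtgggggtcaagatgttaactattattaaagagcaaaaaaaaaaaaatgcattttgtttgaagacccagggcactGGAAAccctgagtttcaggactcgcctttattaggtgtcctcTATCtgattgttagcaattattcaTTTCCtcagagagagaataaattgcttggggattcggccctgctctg
Il13 promoter, chr11:53634703-53634902, minus strand: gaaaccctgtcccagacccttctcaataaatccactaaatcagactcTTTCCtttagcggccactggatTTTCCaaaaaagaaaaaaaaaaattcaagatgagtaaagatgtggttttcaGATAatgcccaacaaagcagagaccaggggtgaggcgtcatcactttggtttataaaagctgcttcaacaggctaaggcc
The Il4 window held 4 GGAAA matches and 0 GATA matches. The Il5 window held 2 GGAAA matches and 1 GATA match, whose first base lay 71 bases before the start, and the Il13 window held 2 and 1, with the GATA match 80 bases before the start. No window held TGANTCA, the core of AP-1 sites. Among 32851 mouse promoters of the same length, 45.4% held a GATA match, 47.6% a GGAAA match and 5.48% a TGANTCA match, so either core alone is common.

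The WT-host library held 3753437 UMIs and the MARCH1-/- host library 1934068, and no called barcode was shared between them. Members had a median of 6623 UMIs (range 1106 to 39526) in the WT host and 8386.5 (3088 to 13387) in the MARCH1-/- host. The closest comparison cells were the 135 and 46 non-cycling Foxp3-negative cells in which no type 2 cytokine UMI was seen, called cytokine-negative cells below. Their medians of 4265 and 4937 UMIs were lower than those of the members, so some of them may hold these transcripts below detection. Levels are given as counts per 1000000 UMIs (CPM) summed over the cells of a group, and ratios as log2 with 95% counting intervals. Ribosomal protein genes held 28.1% of member UMIs in the WT host against 20.9% in the MARCH1-/- host, against 30.9% and 23.4% in cytokine-negative cells.

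Cell type markers were read in members against the label of CD4 T cells. Of 83 and 24 members, 1 and 0 lacked any UMI of a CD3 chain or T cell receptor constant gene. Cd4 was seen in 79 and 18 members and Cd8a in 0 and 0, while Cd8b1, the other CD8 chain, had 1 UMI in each of 3 and 3 members. The 12 CD4 T cell markers summed to 4909 and 6004 CPM in members, below the 5203 and 7868 CPM of cytokine-negative cells. Of the 12, 9 were below in both libraries, against 29.6% of all genes tested. Gata3, which the rule did not use, stood at 584 CPM in members of the WT host and 800 CPM (799.8) in those of the MARCH1-/- host, against 254 and 214 CPM in cytokine-negative cells. After thinning each cell to 1000 UMIs, Gata3 was expected in 40.8% and 50.9% of members and in 18.6% and 17.5% of cytokine-negative cells, against 85.5%, 91.7%, 44.4% and 45.7% as sequenced. All 8 natural killer and all 11 eosinophil and neutrophil markers had 0 UMIs in members. Of the 12 basophil and mast cell markers, 8 were at 0 in both libraries, Cpa3, Fcer1a, Ms4a2 and Gata2 among them, and the list summed to 121 and 153 CPM in members against 14.1 and 4.04 CPM in cytokine-negative cells. Nearly all of it was Hdc, the histamine-making enzyme, with 49 and 9 UMIs in 4 members of each library (36 in 1 WT-host cell), and Cyp11a1, the first enzyme of steroid synthesis, with 16 and 20 UMIs in 8 and 6 members. The 13 markers of group 2 innate lymphoid cells, which Th2 cells share in part, summed to 3080 and 4236 CPM in members and to 1928 and 2566 CPM in cytokine-negative cells. Macrophage, monocyte and dendritic cell markers summed to 109 and 232 CPM (141 and 206 in cytokine-negative cells), with 12 of 20 at 0.

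Members made up 23.6% of called cells in the WT host (83 of 352, exact binomial interval 19.2 to 28.4) and 15.4% in the MARCH1-/- host (24 of 156, 10.1 to 22.0). Cycling Foxp3-negative cells were 88 of 352 and 62 of 156 called cells. Among non-cycling Foxp3-negative cells alone, 38.1% (83 of 218, 31.6 to 44.9) and 34.3% (24 of 70, 23.3 to 46.6) were members, and these intervals overlap. Thinned to 1000 UMIs, with 9 shallower cells of the WT host left out, the expected shares were 24.7% and 17.7%. A cytokine UMI was present in 54.5% (48 of 88) and 53.2% (33 of 62) of those cycling cells. Foxp3-positive cells, mostly regulatory T cells and a class that should largely lack these cytokines, held one in 6 of 46 cells (13.0%, 4.94 to 26.3) and in 0 of 24, which allows a share of up to 12.5% by 3 counts and 14.2% by the exact interval. Non-cycling Foxp3-positive cells held one in 1 of 28 and 0 of 16. Median depths of Foxp3-positive cells were 6596.5 and 6400.5 UMIs. Barcodes with under 100 UMIs, which hold free RNA, carried the 3 cytokines at 670 and 233 CPM, so UMIs in a cell can come from outside it. The chemokine gene Ccl5, with 4 and 1 UMIs in members, stood there at 7.83% and 2.86% of its level in those barcodes, with upper limits of 20.04% and 15.96% for the share of free RNA if all of it came from outside. At these upper limits a free cytokine UMI would be expected in 105 of the 218 and 14.3 of the 70 non-cycling Foxp3-negative cells, against 83 and 24 members. In the WT host this number exceeds that of members, and the part of free RNA in the members' counts was not tested.

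Members differed widely in how much cytokine RNA they held. In the WT host 20 members had a single cytokine UMI, 21 had 2 to 4 and 42 had 5 or more, with a median of 5 and a highest value of 238. In the MARCH1-/- host the numbers were 5, 7 and 12, with a median of 4.5 and a highest value of 78. The 5 richest cells held 47.4% of cytokine UMIs in the WT host against 72.7% in the MARCH1-/- host. Il13 was seen in 68 of 83 and 22 of 24 members, Il4 in 46 and 13, and Il5 in 28 and 5. Il13 without Il4 or Il5 was seen in 22 and 7 members, Il4 with Il13 in 23 and 10, Il5 with Il13 in 12 and 4, and all 3 transcripts in 11 and 1. Il4 alone was seen in 10 and 2 members and Il5 alone in 3 and 0.

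**Figure D1:**
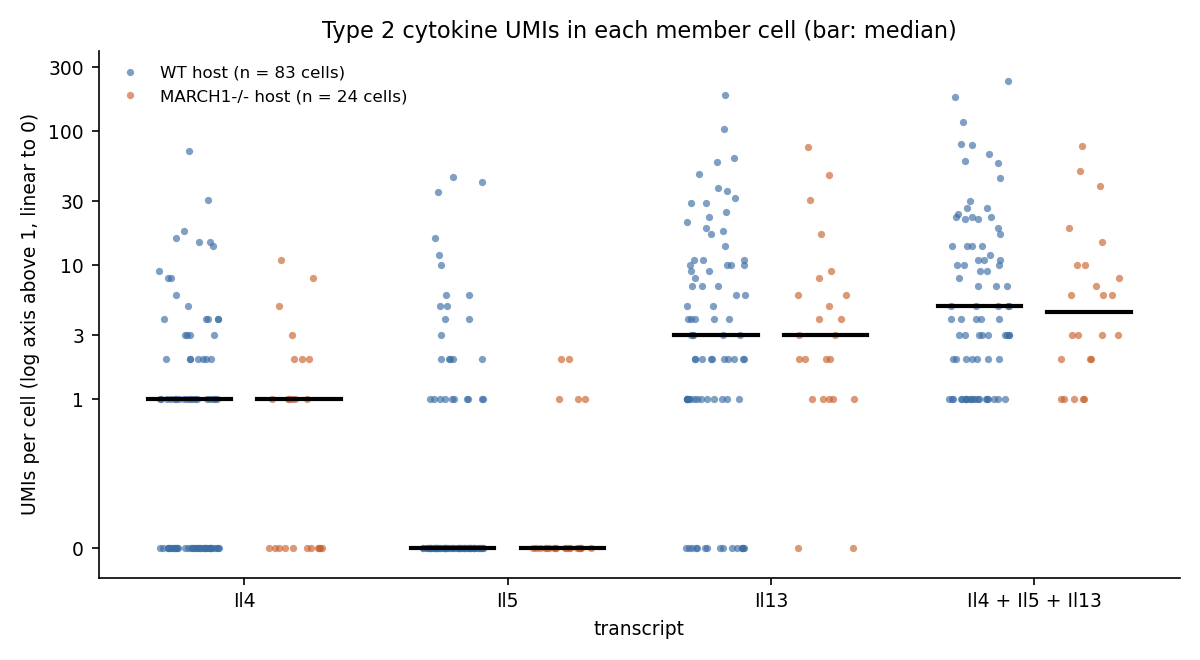
UMIs of Il4, Il5, Il13 and their sum in each member (points, log axis above 1), by host, with the median as a bar. The medians of the sum are 5 and 4.5, while the cells with the most UMIs, up to 238, are in the WT host.

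Cytokine RNA per UMI was higher in members of the WT host. Il13 summed to 975 UMIs (1741 CPM, Poisson interval 1633 to 1854) in the WT host and 232 UMIs (1221 CPM, 1069 to 1388) in the MARCH1-/- host, a log2 ratio of MARCH1-/- over WT host of -0.51 (-0.72 to -0.30). Il4 summed to 280 UMIs (499.96 CPM) and 39 UMIs (205 CPM), a log2 ratio of -1.28 (-1.81 to -0.80). Il5 summed to 214 UMIs (382 CPM) and 7 UMIs (36.8 CPM), a log2 ratio of -3.37 (-4.71 to -2.31). Il5 thus differed most between the hosts, and in the WT host 5 cells held 70.6% of its UMIs. The sum of the 3 stood at 2623 and 1463 CPM, a log2 ratio of -0.84 (-1.03 to -0.66).

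The size of the cytokine difference depended on members with traces of cycling transcripts. In members with 0 cycling UMIs, Il13 stood at 1252 CPM (45 cells) in the WT host and 1570 CPM (15 cells) in the MARCH1-/- host. In members with 1 or 2 cycling UMIs it stood at 2195 CPM (38 cells) and 581 CPM (9 cells). The order of the hosts for Il13 was thus opposite on the 2 sides of this line, and over members with 0 cycling UMIs the log2 ratio of the sum was -0.07. In the WT host 1 member held 188 of the 975 Il13 UMIs, and in the MARCH1-/- host 1 held 76 of 232. Whether the opposite order holds without these cells was not tested. Il5 kept its direction, at 352 and 24.4 CPM without cycling UMIs and 410 and 59.6 CPM with 1 or 2. Il4 stood at 289 and 203 CPM without cycling UMIs and at 696 and 209 CPM with 1 or 2. Its log2 ratio was -0.51 in members with 0 cycling UMIs and -0.50 in cells of 4000 to 9000 UMIs, within 2-fold in both. In cycling cells with a cytokine UMI, outside the members, the sum stood at 2334 and 745 CPM, a log2 ratio of -1.65 (-1.81 to -1.48).

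Against cytokine-negative cells of the same library, 51 of 4084 genes with at least 50 UMIs (1.25%) were past 2-fold higher in members in both libraries, and 57 (1.4%) were past 2-fold lower. Without the member that held the most UMIs of each gene, the counts were 31 and 113. The richest cell was taken from the members alone, which by itself tends to lower their ratios. The 9 genes of the rule were left out. The genes that stood higher included Gata3, the IL-33 receptor gene Il1rl1, the nuclear receptor gene Pparg, the glutathione synthesis gene Gclc and the lysosomal protease gene Lgmn. Those that stood lower included Tcf7, Klf3 and Klf2, transcription factor genes of resting T cells, and genes shared with cytotoxic cells such as Ctsw, Klrk1 and Ccl5.

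Among 17 measured type 2 regulators, 2 were past 2-fold higher and 0 lower, with medians of 0.29 in the WT host against 0.17 in the MARCH1-/- host against 0.02 and 0.02 over all genes. The log2 ratio of Gata3 (chr2:9857078-9890034) was 1.20 (0.92 to 1.48) in the WT host and 1.90 (1.44 to 2.38) in the MARCH1-/- host. Pparg stood at 71.4 and 158 CPM in members and 23.5 and 20.2 CPM in cytokine-negative cells, log2 ratios of 1.60 and 2.97, and was seen in 27 and 15 members. Other regulators differed less. Maf gave 0.29 and 0.44, Rbpj, the effector of Notch signalling, 0.42 and 0.59, and Bhlhe40, which supports cytokine output, -0.01 and -0.18. Cish, a target of STAT5, gave 0.87 and 0.82.

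Receptors set members apart in both directions. Il1rl1 (chr1:40429570-40465415) stood at 499.96 CPM in WT-host members and 574 CPM in MARCH1-/- host members, against 89.5 and 129 CPM, log2 ratios of 2.48 (2.07 to 2.92) and 2.15 (1.57 to 2.77). It was seen in 48 of 83 and 19 of 24 members. Il10ra, which encodes a chain of the IL-10 receptor, gave 2.01 and 1.76. Ifngr1, a chain of the interferon-gamma receptor, was lower at 218 and 247 CPM against 472 and 598, log2 ratios of -1.12 and -1.27. Il18r1, a chain of the IL-18 receptor, gave -1.69 and -1.79. In all, 2 of 14 interleukin receptor genes were past 2-fold higher and 2 lower. Il2ra, the high-affinity chain of the IL-2 receptor, gave 1.84 and 0.97.

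Of 10 chemoattractant receptor genes, Ltb4r1 alone was past 2-fold higher and Ccr2, S1pr1 and Gpr183 were lower. Ltb4r1, the receptor of leukotriene B4, stood at 207 and 631 CPM in members and 69.1 and 158 CPM in cytokine-negative cells. S1pr1, which guides exit from tissue, stood at 42.9 and 78.9 CPM against 154 and 218, log2 ratios of -1.84 and -1.47. Gpr183, a receptor for oxysterols, gave -1.32 and -1.60. Members thus had more Ltb4r1 and less S1pr1 and Gpr183 RNA per UMI in both libraries. Cxcr6 gave 0.24 and 0.54.

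Besides the 3 cytokines, members held RNA for other secreted products. Il10, an anti-inflammatory cytokine, stood at 227 and 216 CPM against 76.9 and 44.5, log2 ratios of 1.56 and 2.28, but was seen in only 13 of 83 and 8 of 24 members. Plac8 stood at 1168 and 1284 CPM against 457 and 101, log2 ratios of 1.35 and 3.67. Ltb, a membrane-bound member of the TNF family, was lower at 120 (119.6) and 94.7 CPM against 319 and 566, log2 ratios of -1.41 and -2.58. Areg, a growth factor for epithelium, gave 1.19 and 0.68. Of 11 measured effector genes, 4 were past 2-fold higher (Il10, Plac8, Calca and Ccl1) and 1 was lower (Ltb).

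Calca and Ccl1 rested on few cells. Calca, which encodes calcitonin gene-related peptide, had 135 UMIs in 19 WT-host members and 49 UMIs in 3 MARCH1-/- host members, 47 of them in a single cell, and 0 UMIs in cytokine-negative cells of that host. Ccl1, a ligand of CCR8, had 690 UMIs in 15 WT-host members, 374 of them in a single cell, and 13 UMIs in 2 MARCH1-/- host members. Without the richest member of each library the log2 ratio of Ccl1 was 2.25 in the WT host and -1.88 in the other. The direction of Ccl1 in the MARCH1-/- host was therefore that of 1 cell.

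The genes with the largest ratios in the library where each was smaller were Lgmn, Gclc, Mt1, Ier3 and Calca. Lgmn (chr12:102394084-102439813) stood at 74.99 and 399.9 CPM against 9.42 and 12.1, log2 ratios of 2.99 (1.75 to 4.52) and 5.04 (3.44 to 7.35). Gclc (chr9:77754535-77794485), the catalytic subunit of the first step of glutathione synthesis, stood at 259 and 405 CPM against 33.0 and 48.5, log2 ratios of 2.97 (2.31 to 3.71) and 3.06 (2.18 to 4.08). It was seen in 40 of 83 and 13 of 24 members. Mt1, a metallothionein that binds zinc, gave 3.16 and 2.97, with 95 of its 220 UMIs in the WT host in 1 member, and 2.45 and 2.62 without the richest member of each library. Ier3, an immediate early gene, gave 2.92 and 4.19, Zcchc10 2.41 and 3.15, Prxl2a 3.22 and 2.38, Zfp655 1.87 and 2.84, Arl5a 1.79 and 2.30, and Shtn1 1.75 and 3.55. Apart from Calca, each of the 12 leading genes kept its direction in both libraries without its richest member.

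Genes of resting and memory T cells were the list with the most lower genes. Of 10 measured, 0 were past 2-fold higher and 6 lower (Tcf7, Klf2, Klf3, S1pr1, Bcl2 and Satb1), and 9 were below no change in both libraries, with medians of -1.83 and -1.33. Of all genes tested, 29.6% were below in both. Tcf7, which encodes TCF1, had 10 UMIs (17.9 CPM) in WT-host members and 0 in MARCH1-/- host members, against 76.9 and 141 CPM in cytokine-negative cells. That is a log2 ratio of -2.11 (-3.25 to -1.11) in the WT host and at most -3.16 in the other, where 0 was set to the floor of 3 counts over the group. Klf3 gave -2.46 and -3.01, Txk, a kinase of T cell receptor signalling, -2.01 and at most -2.94, and Slamf6, a receptor of the SLAM family, -1.85 and -3.49.

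Several products of other helper and cytotoxic programs were also lower. Ccl5, a chemokine of cytotoxic and type 1 cells, had 4 UMIs in WT-host members and 1 in MARCH1-/- host members, against 238 and 52 in cytokine-negative cells, log2 ratios of -5.71 (-7.60 to -4.33) and -5.32 (-10.65 to -2.78). Klrk1, which encodes the activating receptor NKG2D, had 0 UMIs in members of both libraries against 38 and 17, so its log2 ratio was at most -3.48 and -2.12 at the floor of 3 counts. Ctsw, a protease of cytotoxic lymphocytes, gave -2.31 and -2.94, and Cd96, a co-inhibitory receptor, -2.10 and -3.62. Of 9 type 1 and cytotoxic genes, 0 were past 2-fold higher and 3 lower (Ccl5, Ly6c2 and Il18r1). Of 7 type 17 genes, Rora, Tmem176a and Tmem176b were lower and Ltb4r1 higher. The type 17 cytokine gene Il17a, given further below, was not past 2-fold lower in both libraries. Tmem176b gave -1.95 and -2.12, Tmem176a -1.92 and -2.97, and Rora, a nuclear receptor shared with innate lymphoid cells, -1.14 and -1.80. The remaining leading lower genes were Ifi208 (-2.14 and -2.62), Nebl (-2.19 and -2.03) and Sdcbp2 (-2.40 and -1.84).

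**Figure D2:**
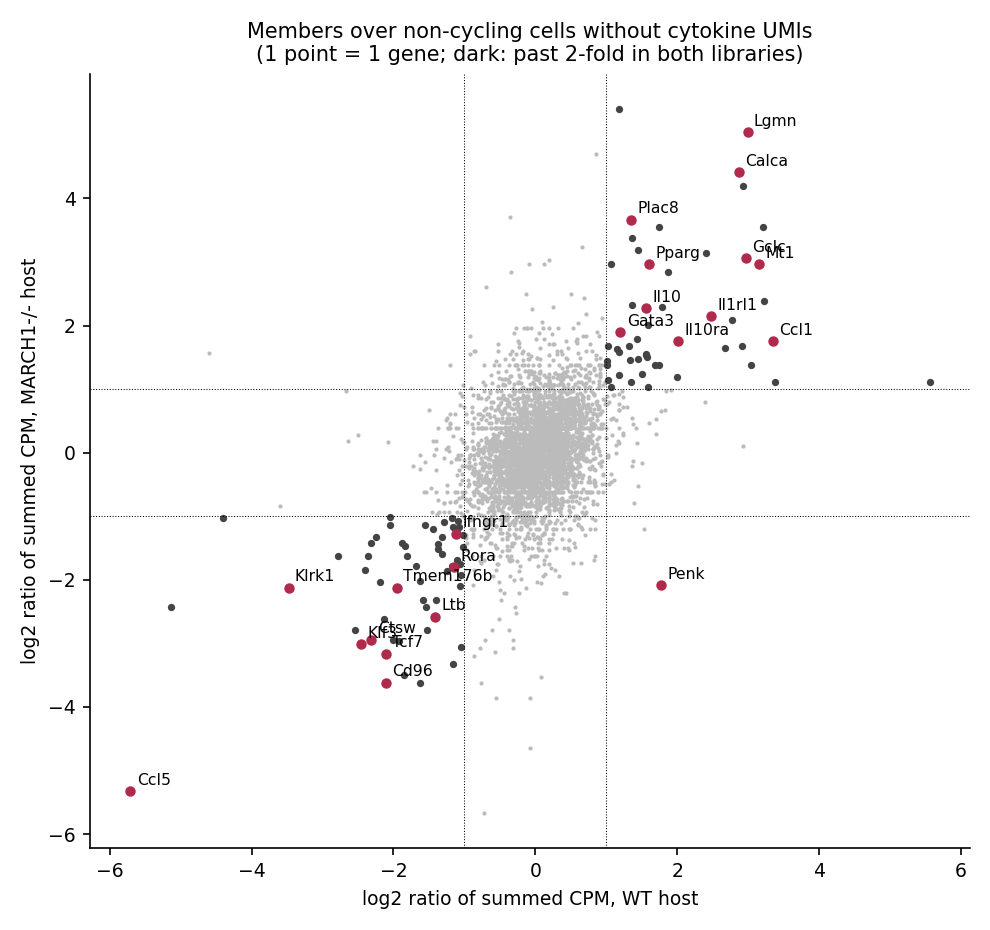
Log2 ratio of summed CPM in members over cytokine-negative cells, WT host (horizontal) against MARCH1-/- host (vertical), 1 point per gene with at least 50 UMIs. Gata3, Il1rl1, Gclc and Lgmn lie past 2-fold (dotted lines) at the upper right, and Tcf7, Klf3, Cd96 and Ccl5 at the lower left, while Penk lies on opposite sides in the libraries.

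Inhibitory receptors did not set members apart by the 2-fold measure, apart from Cd96. Of 14 co-inhibitory genes 0 were past 2-fold higher and 1 lower, with medians of 0.05 and 0.14. Pdcd1, which encodes PD-1, stood at 277 and 347 CPM against 198 and 214, log2 ratios of 0.48 (0.14 to 0.84) and 0.70 (0.15 to 1.25). Lag3 gave 0.91 (0.40 to 1.44) and 1.22 (0.47 to 2.01), and Ctla4 -0.14 and -0.17. Of 18 exhaustion-associated regulators, Rgs16 was past 2-fold higher and Tcf7 lower.

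The medians of metabolic and secretory gene lists leaned upward by less than 2-fold. Of 15 glycolysis and hypoxia genes, 13 were above no change in both libraries, with medians of 0.58 and 0.34, against 32.7% of all genes tested. Aldoa, a glycolytic enzyme, gave 0.95 and 1.07 and Ldha, lactate dehydrogenase, 0.70 and 0.51. Hk2 and Ero1l were past 2-fold, but Hk2 gave only 0.98 and 0.44 without its richest members. Of 21 secretory pathway genes, 15 were above in both libraries (medians 0.39 and 0.42) and 0 were past 2-fold. The lean was not particular to these lists. Above in both were also 10 of 15 dissociation and heat shock genes (medians 0.33 and 0.13) and 17 of 29 oxidative phosphorylation genes (0.17 and 0.14). Of 25 interferon response genes, 0 were past 2-fold higher and 4 lower (Ifit3, Ifi209, Ifi213 and Ifitm1), and 16 were below in both, with medians of -0.87 and -0.15, against 29.6% of all genes tested. Ifitm1, an antiviral membrane protein gene, had 0 UMIs in members and 72 and 8 in cytokine-negative cells. No gene was past 2-fold among 29 of oxidative phosphorylation, 24 of residency and adhesion, 11 of regulatory T cells outside Foxp3 or 8 of cholesterol synthesis.

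Members near the cytokine threshold stood closer to the cytokine-negative cells in the WT host. Gata3 was at 279 CPM in the 20 WT-host members with 1 cytokine UMI, 664 in those with 2 to 4 and 650 (650.1) in those with 5 or more, against 254 in cytokine-negative cells just outside. In the MARCH1-/- host the values were 618, 767 and 868 CPM against 214, from only 5, 7 and 12 cells. Il1rl1 stood at 135, 482 and 615 CPM in the WT host and 309, 499 and 687 CPM in the MARCH1-/- host. Both genes were thus lowest in members with a single cytokine UMI in both libraries. Rora ran the other way, at 452, 127 and 37.6 CPM in the WT host and 343, 71.3 and 66.8 CPM in the other. Ifngr1 stood at 346, 327 and 144 CPM and at 412, 303 and 172 CPM. At the cycling limit, 45, 32 and 6 members of the WT host had 0, 1 and 2 cycling UMIs, and 15, 7 and 2 of the MARCH1-/- host, while 14 and 10 cells with 3 to 5 lay just outside. A single cell, of the WT host, had 1 Foxp3 UMI and met the other conditions.

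Members with and without single transcripts differed in part. Il10 stood at 369.9 CPM in the 46 WT-host members with Il4 and 13.3 CPM in the 37 without, and at 279.8 CPM and 133 CPM in the MARCH1-/- host. Il2ra stood at 694 CPM in the 28 WT-host members with Il5 and 247 CPM in the 55 without. In the MARCH1-/- host it stood at 243 and 196 CPM, the first from 5 cells. Seeing a cytokine UMI goes with depth. The median was 4937 UMIs in WT-host members with 1 cytokine UMI and 7908.5 in those with 5 or more. The part of depth in these splits was not tested. In the WT host 48 members had Il1rl1 and 35 did not, and in the MARCH1-/- host 19 and 5. Plac8 was higher in members with Il1rl1, at 1377 against 778 CPM and 1531 against 31.9 CPM, the last from 5 cells. Gata3 differed less by Il1rl1, at 634 against 491 CPM and 838 against 607 CPM.

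Il17a, the hallmark cytokine of type 17 cells, was also found among the members of the WT host. It had 99 UMIs in 9 of the 83, with 55 in 1 cell, and 0 UMIs in the 24 members of the MARCH1-/- host. Of the 99, 87 were in 5 members with a single cytokine UMI, and members with 5 or more held 2. The 99 were among 560042 UMIs of WT-host members. In cytokine-negative cells Il17a stood at 187 and 396 CPM, so in the WT host members lay within 2-fold of them.

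**Figure D3:**
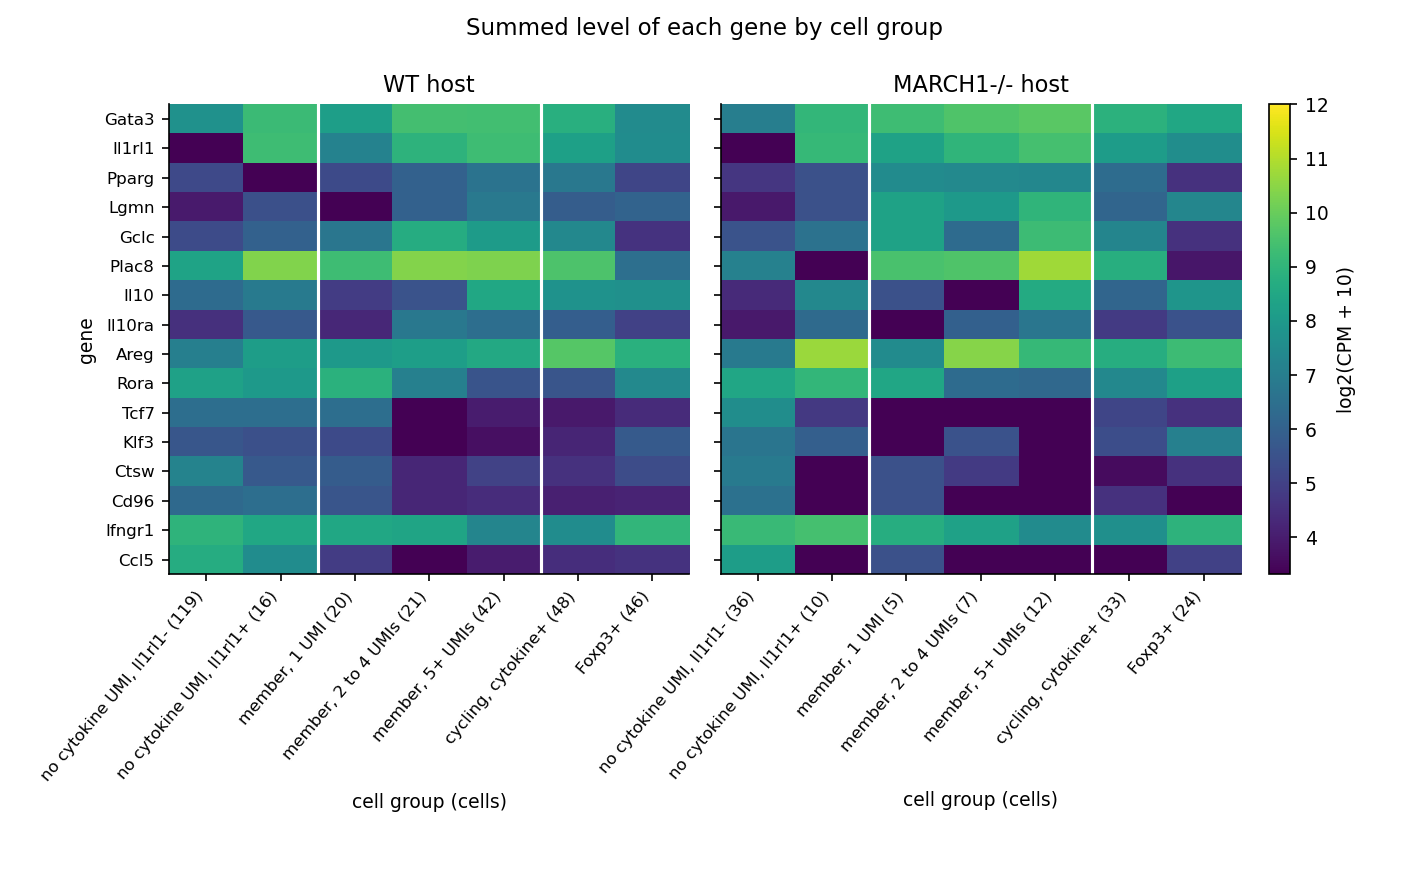
Summed level of 16 genes, as log2(CPM + 10) on a colour scale, in 7 cell groups of each host, with cell numbers in brackets. White lines frame the members by cytokine UMIs. Gclc is brighter and Ccl5 darker in members with 2 or more cytokine UMIs of the WT host than in both groups to their left, while Gata3 is as bright in cytokine-negative cells with Il1rl1 as in those members, and WT-host members with 1 UMI keep Tcf7 and Rora.

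Cells beside the members shared some of these levels. The 16 and 10 cytokine-negative cells with Il1rl1 had Gata3 at 594 and 523 CPM, against 584 and 799.8 CPM in members. Gclc stood at 55.0 and 87.2 CPM in them and Pparg at 0 and 34.9 CPM. These cells held only 90833 and 57356 UMIs in sum, so both genes rest on few UMIs. Pparg lay below the floor of 3 counts in both libraries. Cycling cells with cytokine UMIs had Gata3 at 432 and 468 CPM, Il1rl1 at 298 and 269 CPM and Gclc at 154 and 144 CPM. Each of these 3 genes was lower there than in the members of the same library. Foxp3-positive cells had Gata3 at 172 and 350 CPM (350.3) and Gclc at 13.9 and 13.3 CPM.

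Against all other called cells, 69 of 6753 genes (1.02%) were past 2-fold higher in members in both libraries and 268 (3.97%) lower. The lower genes included 33 of 37 cell cycle genes that the rule had not named, which follows from a limit on cycling transcripts. Without the member holding the most UMIs of each gene, again taken from the members alone, 21 genes were higher and 389 lower. Genes higher here as well included Gata3 (1.05 and 1.22), Il1rl1 (1.69 and 1.83), Gclc (2.07 and 2.50), Plac8 (1.59 and 2.86), Il10ra (1.40 and 1.81) and Lgmn (1.31 and 2.90). Cish was past 2-fold only against this wider group, at 1.03 and 1.23. Among type 1 genes Gzmb (-4.96 and -2.61), Cxcr3 (-4.28 and -1.66) and Ccl5 (-4.13 and -3.02) were lower.

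Between hosts, 169 of 2154 genes with at least 50 UMIs in members (7.85%) were past 2-fold higher in the MARCH1-/- host and 131 (6.08%) lower. The median gene was shifted by 0.16, and relative to it 109 genes (5.06%) were higher and 184 (8.54%) lower. Cytokine-negative cells gave similar shares, 8.76% of 2522 genes higher and 6.66% lower. Of 2027 genes measured in both cell groups, 68 were higher in both, which is 43.3% of the members' 157 and 45.6% of the other cells' 149. A further 66 were lower in both, 56.4% of 117 and 47.5% of 139. The length decile with the shortest transcripts (204 to 948 bases) stood apart, with a median of -0.42 against 0.076 to 0.35 in the other 9 deciles, and held 43 of the 131 lower genes but 7 of the higher ones. Its part in single results was not tested.

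Genes higher in MARCH1-/- host members included Klf2, Dusp1, Dusp2, Nfkbia and Lgmn. Klf2, a transcription factor that favours recirculation, stood at 28.6 CPM in WT-host and 205 CPM in MARCH1-/- host members, a log2 ratio of 2.84 (1.97 to 3.78), seen in 8 of 83 and 6 of 24 cells. Dusp2 and Dusp1, phosphatases that switch off MAP kinases, stood at 57.1 against 237 CPM (2.05, 1.37 to 2.75) and 170 (169.6) against 579 CPM (1.77, 1.36 to 2.18). Nfkbia, the inhibitor of NF-kappaB, gave 1.32. Of 19 T cell receptor response genes 6 were past 2-fold higher and 0 lower, with a median of 0.67 and 0.51 relative to the median gene. In cytokine-negative cells the median of the list was 0.59.

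Of 6 chemoattractant receptor genes 4 were past 2-fold higher and 1 lower, beside 7.85% and 6.08% of all genes. The list median was 1.27 in members and 0.89 in cytokine-negative cells, so a shift was seen in both cell groups. Of 9 interleukin receptor genes 0 were higher and 1 lower (median -0.03). Ltb4r1 had log2 ratio 1.61 (1.23 to 1.99), Cxcr6 1.15, Ccr2 1.39 and Ccr1 1.56, while Ccr8, a receptor of Th2 cells, was lower at 87.5 against 10.5 CPM, a log2 ratio of -3.06 (-6.14 to -1.13). Ccr8 was seen in 36 of 83 and 2 of 24 members. Vim, an intermediate filament protein, stood at 1630 (1630.2) against 4152 CPM (1.35, 1.21 to 1.49), and Itgb7, the beta 7 integrin, at 104 against 326 CPM (1.66). Lgals3, a galectin, gave 1.40. Of 22 residency and adhesion genes 5 were past 2-fold higher and 0 lower, and 13 were above no change, beside 1305 of all 2154 genes. Their median was 0.68 in members and 0.44 in cytokine-negative cells. Smco4 (2.42), Vasp (1.74), Phf11b (1.90) and Zfp36l2 (1.45) complete the leading higher genes with Lgmn (2.41).

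Genes lower in MARCH1-/- host members included Ccl1, Furin, Tnfsf8 and Il17a. Ccl1 stood at 1232 against 68.4 CPM, a log2 ratio of -4.17 with the few-cell pattern given above, and of 0.51 in members with 0 cycling UMIs. Furin, a protease that matures secreted proteins, stood at 1084 against 226 CPM (-2.26, -2.74 to -1.81). Tnfsf8, the CD30 ligand, stood at 1446 against 447 CPM (-1.69, -2.03 to -1.37). Il17a had a log2 ratio of at most -3.49, and at most -2.27 without the WT-host cell that held 55 of its UMIs. Among members with at least 2 cytokine UMIs, which held 12 of its UMIs in the WT host, the bound was at most -0.50, within 2-fold. Nrgn, with 69 UMIs against 1, gave -4.55, and Lgals7, a galectin, -2.22. Short transcripts were frequent among the rest, with Tmsb10 (690 bases, -2.05), Atp5k (563 bases, -2.03), Hist2h2aa1 (586 bases, at most -2.58) and Gstp1 (821 bases, -3.40). Relative to genes of the same length decile these gave -1.63, -1.61, -2.17 and -2.98. Wdr89 gave -2.03 and Bola2 -2.09. Gstp1, Hist2h2aa1, Lgals7 and Phf11b have close relatives in the genome, and whether similar copies affected their counts was not tested.

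Among genes of the inhibitory program, Ctla4 stood at 512 CPM in WT-host and 1084 CPM in MARCH1-/- host members (1.08, 0.82 to 1.34) and Tox, a regulator of exhaustion, at 325 and 121 CPM (-1.43, -2.12 to -0.80). Pdcd1 gave 0.33 (-0.11 to 0.75) and Lag3 0.56 (0.00 to 1.10), intervals that reach no change. Of 11 co-inhibitory genes measured, Ctla4 was past 2-fold higher and Cd200 and Nt5e lower. Cytokine-negative cells gave 1.10 for Ctla4 and -0.89 for Tox. The costimulatory genes Cd28 and Icos gave 1.05 and 0.79. Of 28 oxidative phosphorylation genes, most of them short, 0 were past 2-fold higher and 5 lower, with a median of -0.73 in members, -0.71 in cytokine-negative cells and -0.49 relative to genes of the same length decile.

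For some genes, named after their values were seen, the host ratio in members lay apart from that in cytokine-negative cells. Counting intervals did not overlap for Plac8, Rgs1, Lgals3, Id2 and Gbp7, nor for Il17a and Hspa5, which are given further below. How many of the 2027 genes measured in both cell groups did the same was not counted, so these genes cannot be set against a background share. Plac8 gave 0.14 (-0.08 to 0.35) and -2.18 (-2.83 to -1.59), Rgs1, a brake on chemokine signalling, 0.94 (0.74 to 1.14) and 0.06 (-0.18 to 0.30), and Lgals3 1.40 (1.10 to 1.70) and 0.56 (0.19 to 0.93). Id2, a transcriptional regulator, went the other way, at 420 (419.6) against 563 CPM in members (0.42, 0.08 to 0.76) and 301 against 853 CPM in cytokine-negative cells (interval 1.21 to 1.79). The interferon-inducible gene Gbp7 gave 1.29 (0.68 to 1.89) and -0.31 (-0.91 to 0.25). Among type 2 regulators, Gata3 gave 0.45 (0.17 to 0.74) and -0.25 (-0.72 to 0.21), and Pparg, the only one of 10 past 2-fold, 1.14 (0.41 to 1.86) and -0.22 (-2.04 to 1.31), intervals that overlap. These differences of ratios were not tested.

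**Figure D4:**
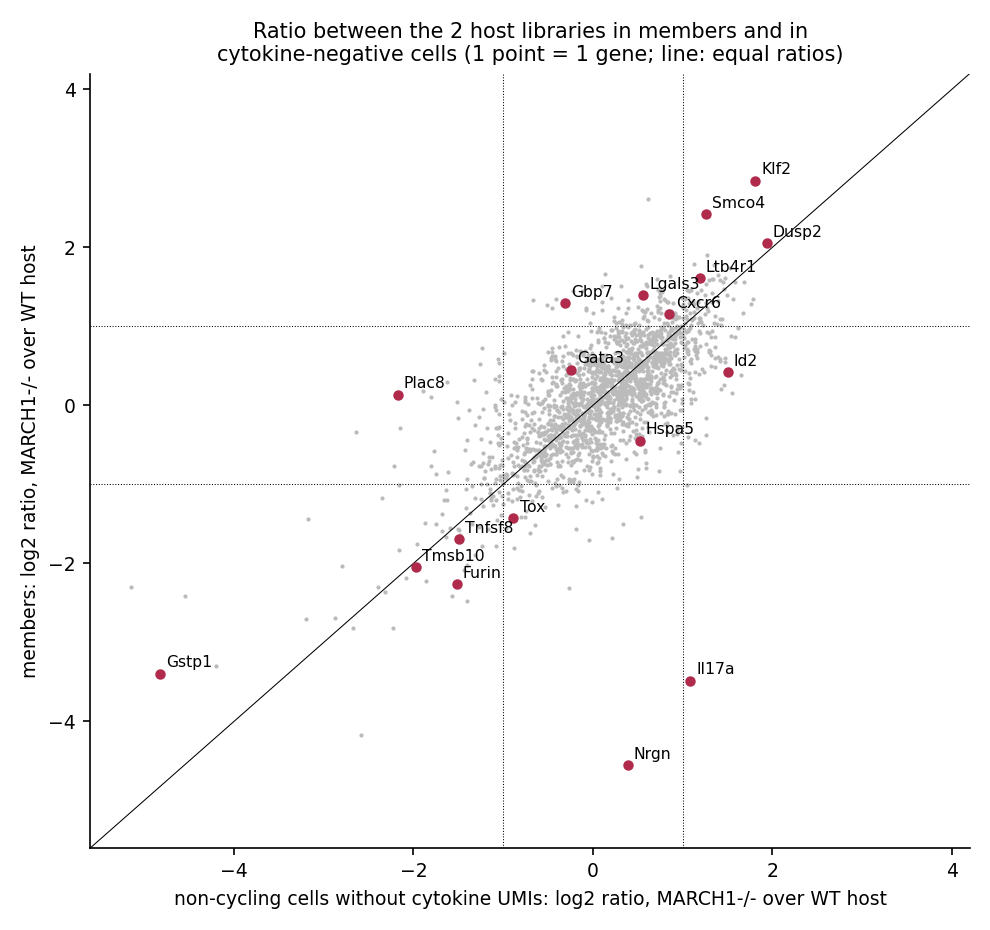
Log2 ratio of the MARCH1-/- over the WT host in members (vertical) against cytokine-negative cells (horizontal) for 2027 genes, with the line of equal ratios and dotted lines at 2-fold. Klf2, Smco4 and Dusp2 are high and Furin, Tmsb10 and Gstp1 low in both cell groups, while Il17a and Nrgn are low in members alone and Plac8 in cytokine-negative cells alone.

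Variable gene segments (Trbv) of the T cell receptor beta chain were seen in part of the members, which shows segment use but does not resolve clones. A Trbv UMI was seen in 27 of 83 members of the WT host, over 12 segments, and in 3 of 24 of the MARCH1-/- host, over 3. Of the 27, 2 held UMIs of 2 or more segments. Trbv3 was seen in 7, Trbv2 in 5 and Trbv19 in 5 WT-host members. No segment was seen in more than 1 member of the MARCH1-/- host.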

How the data were processed

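Each library was made with a 10x Chromium 3' kit, per the labels' protocols. The deposited matrices hold raw counts of UMIs for 32285 genes and every barcode, without normalization by the authors. The submitters' processing notes name Cell Ranger 3.1.0 and the mm10 build. Per the file headers the matrices came from Cell Ranger 4. Which version counted the reads is not given in the labels. Members, gene lists and thresholds were chosen with earlier results of these data known.

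UMIs were summed per library and cell group and scaled to 1000000 (CPM). Ratios carry exact conditional binomial intervals, sums exact Poisson intervals and shares Clopper-Pearson intervals, all at 95% and for counting error only. UMIs within a cell are not independent, so intervals are too narrow where few cells hold a gene. A count of 0 entered a ratio at 3 counts per group, and no ratio was formed where that bound pointed the other way. Genes needed at least 50 UMIs in the groups compared and were called past 2-fold, within libraries in both. Thinned shares are exact expectations, not random draws. Cells were not clustered, and doublets were kept, with Scrublet (scanpy 1.11.5) as an alternative. Named genes were the 12 highest and 12 lowest seen in at least 10% of cells, ranked by the smaller ratio of the libraries within hosts and by the distance of the interval from no change between hosts. This ranking skipped genes without a proper name and those of ribosomes, mitochondria, haemoglobin, immunoglobulins and T cell receptor segments. List genes were named if past 2-fold or among the 6 of their list with the most UMIs. Positions and lengths came from GENCODE M21 and promoters from RefSeq. Scripts were tested on simulated data. Python 3.11.15 was used.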

Additional observations from a re-analysis of the deposited data

Results flagged for a closer look

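Hspa5, an endoplasmic reticulum chaperone gene, had host ratios of opposite sign in the 2 cell groups, with log2 MARCH1-/- over WT host at -0.45 in members and 0.52 in cytokine-negative cells. The same gene gave 0.53 for members over cytokine-negative cells in the WT host against -0.44 in the MARCH1-/- host. Il17a gave at most -3.49 (0 UMIs set to the floor of 3 counts) between hosts in members and 1.08 in cytokine-negative cells.

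For 5 further genes members stood above cytokine-negative cells in 1 library and below them in the other. Gbp7 gave -0.89 in the WT host against 0.71 in the MARCH1-/- host, Id2 0.48 and -0.60, Spcs1, a signal peptidase subunit gene, -0.43 and 1.16, Penk, the proenkephalin gene, 1.77 and -2.08, and Tff1, a trefoil factor gene, -4.60 and 1.57. In WT-host members 22 of 24 Penk UMIs were in 1 cell, and in MARCH1-/- host members 9 of 16 Tff1 UMIs were. None of these differences between hosts or cell groups was tested.

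Barcodes that passed the other limits but exceeded 10% mitochondrial UMIs also held type 2 cytokine UMIs. There were 72 such barcodes in the WT-host library, with 7 cytokine UMIs (90.4 CPM, 36.3 to 186), and 25 in the MARCH1-/- host library, with 5 (168 CPM, 54.4 to 391). Barcodes with under 100 UMIs, which hold free RNA, stood at 670 and 233 CPM. The WT-host interval lies below the first value, while the MARCH1-/- host interval includes the second.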

How the results depend on the processing

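Of 135 alternative values for the 9 summary results, 107 stayed within 1.5 times the reported count or within the counting interval, and 28 moved. Requiring 2 or 3 cytokine UMIs lowered the WT-host share to 17.9% and 15.9%, and 3 UMIs gave 89 genes lower than in cytokine-negative cells. Requiring 0 cycling UMIs gave shares of 12.8% and 9.62%, 93 genes higher in the MARCH1-/- host and a cytokine log2 ratio of -0.075, and turned the host ratios of Il13 to 0.33 and Ccl1 to 0.51. Scaling to the median gene gave 109 genes higher in the MARCH1-/- host. With genes of at least 20 UMIs, 132 were higher than in other called cells, 103 higher and 125 lower than in cytokine-negative cells, and 523 higher and 304 lower by host. With 1 UMI these were 282, 180, 192, 2028 and 711. Without the 5% deepest members 36 genes were lower than in cytokine-negative cells, and the cytokine ratio was -1.06. Without the member holding most UMIs of each gene, 21 genes were higher than in other cells, 31 higher and 113 lower than in cytokine-negative cells, and the cytokine ratio was -1.06. Chosen after seeing the data, cells of 4000 to 9000 UMIs gave 31 higher, 23 lower and 110 higher by host, and scaling by length decile gave 106 higher by host. Of 1293 values for named genes, 80 moved and 2 reversed (Il13 and Ccl1). Counts over more genes follow from the lower minimum, and for the others the cause was not tested. The 24 members of the MARCH1-/- host limit the precision of every host ratio.

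No paired analysis was possible because there was 1 library per host.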
